A study of Homo sapiens with 4 samples.

Results

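The complement and coagulation genes are the mRNA genes that the pathway Complement and coagulation cascades (KEGG hsa04610) held among the differentially expressed genes of HepG2 or Huh7 cells after sonodynamic therapy (SDT). They were chosen from the gene column of that pathway's row in the KEGG tables of group B vs. A (HepG2) and group D vs. C (Huh7), and they numbered 51 identifiers of the 6892 genes listed in any table. HepG2 and Huh7 are long-established lines of human liver cancer cells. Groups A and C were HepG2 and Huh7 cells before treatment, and groups B and D were the same cells after SDT with targeted nanobubbles that carried hematoporphyrin monomethyl ether (HMME) as the sensitizer and lonidamine (LND), an inhibitor of energy metabolism, under low-frequency ultrasound. There was 1 library in each of the 4 groups, and neither the ultrasound nor the nanobubbles alone was sequenced, so the parts of the treatment cannot be told apart.

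The tables give which genes were listed as differentially expressed, without an expression level, a fold change or a direction. Listing was therefore the only value of a gene in a cell line, and it was the value that chose the members. With 1 library in each group there was no replicate error, and the counts that follow are descriptions with no test. A gene outside a list may have been unexpressed, unchanged or short of the threshold, and these cannot be told apart.

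Complement is a set of plasma and membrane proteins that tags and lyses targets. The C1 complex, mannose-binding lectin or spontaneous turnover of C3 starts it, convertases cleave C3 and C5, and C5 to C9 assemble the membrane attack complex. Coagulation runs from the contact factors or from tissue factor to thrombin, which turns fibrinogen into fibrin, and plasmin dissolves the clot. Serpins, the protein C system and the regulators of complement hold these steps in check. Hepatocytes secrete most of these proteins into plasma, and the paper describes both cell lines as hepatocellular carcinoma lines.

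The row of HepG2 cells held 29 identifiers against 69 background genes (42.0%) and the row of Huh7 cells held 44 (63.8%). Some identifiers share a KEGG gene number. With each number counted once, the rows held 28 (40.6%) and 41 (59.4%) of the 69. Among all annotated genes of the GO tables, HepG2 cells listed 21.6% and Huh7 cells 19.7%. Among all places of genes in KEGG pathways, where a gene counts once for each of its pathways, 26.3% and 25.8% were listed. The rows had 22 identifiers in common, which was 75.9% of the HepG2 row and 22 of the 44 in the Huh7 row. HepG2 cells alone listed 7 members, and Huh7 cells alone listed 22. For all listed genes the shared part was 47.7% of the HepG2 list and 52.2% of the Huh7 list, and 10.3% of the annotated genes were listed in both. Of the 176 pathways with at least 50 background genes in each table, the pathway stood at place 1 for Huh7 and at place 5 for HepG2 by listed identifiers over background genes. All members of each row were also in the GO list of the same comparison.

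**Figure D1:**
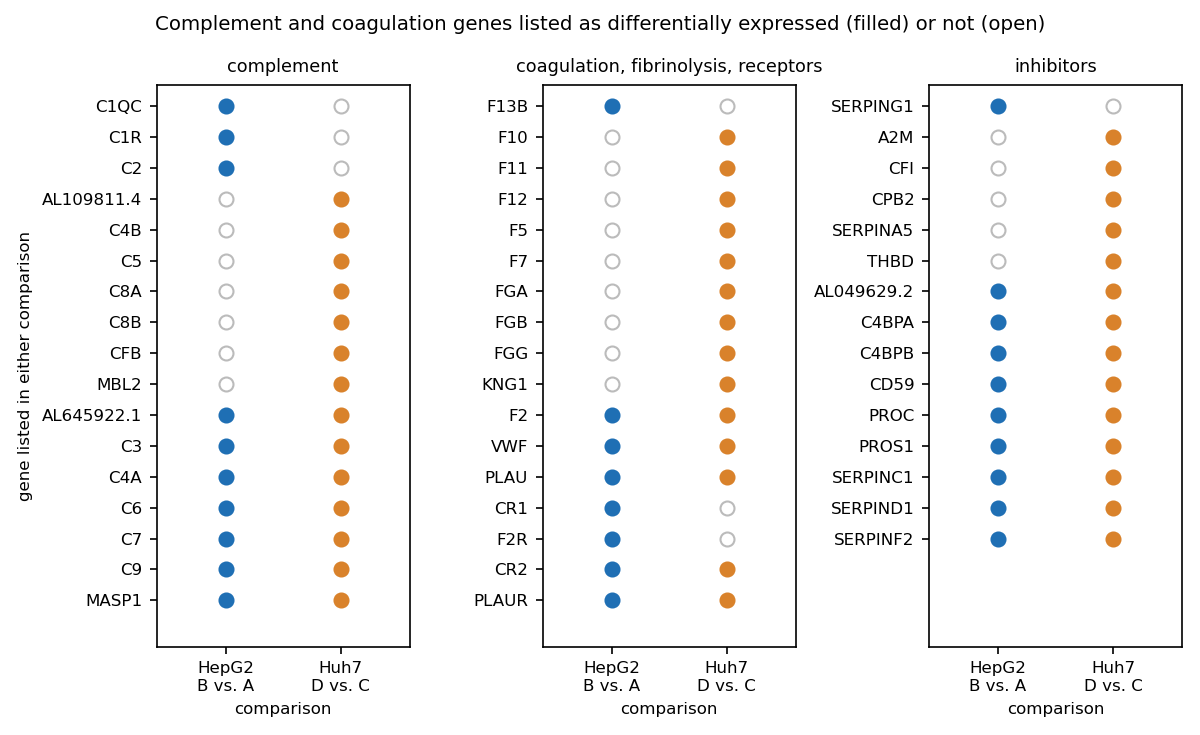
Each row is a member, grouped by role, with 2 of the 51 left out, and each column is a comparison; a filled circle marks a gene listed as differentially expressed and an open circle a gene that was not listed. In the middle panel, 9 coagulation genes are filled for Huh7 cells only, while F13B is filled for HepG2 cells only.

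The members divided into 17 complement components, 12 coagulation factors, 1 fibrinolysis gene, 17 inhibitors and 4 receptors. These counts include 3 identifiers without a gene symbol, described below. AL645922.1 and AL109811.4 were counted as complement components, and AL049629.2 as an inhibitor. Of the complement components HepG2 cells listed 10 and Huh7 cells 14, with 7 in common. For the coagulation factors the numbers were 3 and 11, with 2 in common. Of the inhibitors HepG2 cells listed 11 and Huh7 cells 16, and 10 of them were shared. HepG2 cells listed all 4 receptors, and Huh7 cells 2 of them. Without the identifiers that lack a symbol, HepG2 cells listed 9 complement components and 10 inhibitors, and Huh7 cells listed 12 and 15. When each inhibitor and receptor was put with its arm, the complement arm held 17 identifiers of the HepG2 row and 21 of the Huh7 row. Without the identifiers that lack a symbol it held 15 and 18. The arm of coagulation and fibrinolysis held 12 and 23. The difference of these counts between cell lines was not tested.

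Since the row holds only listed genes, a list of 91 textbook genes of the cascades was compared with the GO lists. HepG2 cells listed 38 of them (41.8%) and Huh7 cells listed 46 (50.5%); 24 (26.4%) were in both lists and 31 in neither. By role, 15 of 32 complement components were listed in each cell line. Of 17 coagulation factors, HepG2 cells listed 3 (17.6%), near the 21.6% of all annotated genes, and Huh7 cells 11 (64.7%), above the 19.7%. All of these listed factors were members of the rows. Of 23 inhibitors, HepG2 cells listed 10 (43.5%) and Huh7 cells 15 (65.2%), a share like that of the coagulation factors in Huh7 cells. Of 16 receptors, HepG2 cells listed 9 (56.2%) and Huh7 cells 4.

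**Figure D2:**
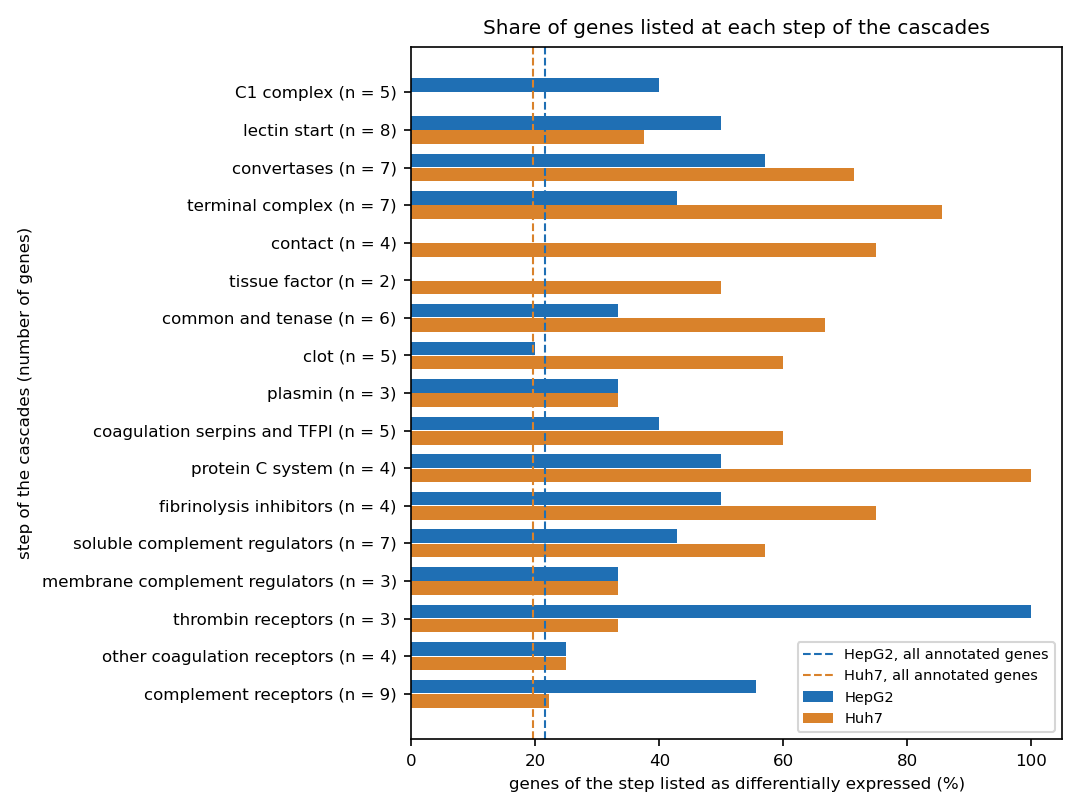
Bars give the percentage of the textbook genes at each step of the cascades, 1 step being left out, that were listed in HepG2 (blue) and Huh7 (orange) cells, and dashed lines the share of all annotated genes, 21.6% and 19.7%. Huh7 bars are longer from the contact step to the clot, and HepG2 bars are longer for the C1 complex, the lectin start, the thrombin receptors and the complement receptors. The textbook genes include members, which were chosen by their listing.

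The C1 complex starts the classical pathway when C1q binds antibody on a surface. C1QC, a chain of C1q, and C1R, the protease that activates C1s, were listed in HepG2 cells only. C1QA, C1QB and C1S were in neither list, so HepG2 cells listed 2 of the 5 genes and Huh7 cells 0. In the lectin pathway, MASP1, a protease bound to the lectins, was listed in both cell lines, and MBL2, the mannose-binding lectin, in Huh7 cells only. FCN1, COLEC10 and COLEC11, which are further lectins of this pathway, were listed in HepG2 cells and FCN3 in Huh7 cells, all outside the KEGG row, and FCN2 was in neither list.

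C3, on which all routes of complement converge, was listed in both cell lines. C4A, from which the C3 convertase of the classical and lectin pathways is built, was also listed in both, and C4B in Huh7 cells only. C2, the protease subunit of that convertase, was listed in HepG2 cells only. CFB, which has the same part in the alternative pathway, was listed in Huh7 cells only. Properdin (CFP), which stabilizes the alternative convertase, was listed in both cell lines outside the row, and CFD was in neither list.

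Of the terminal components, Huh7 cells listed C5, C6, C7, C8A, C8B and C9, 6 of 7 genes, next to 5 of 7 for the convertase step. HepG2 cells listed C6, C7 and C9, 3 of 7. C8G, the gamma chain of C8, was in neither list. C6, C7 and C9 insert into the target membrane together with C5b and C8.

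Thrombin (F2) and von Willebrand factor (VWF), which carries factor VIII and tethers platelets, were the only coagulation factors of the row listed in both cell lines. F11, F12 and KNG1 of the contact system were listed in Huh7 cells only, 3 of 4 genes, with KLKB1 in neither list. F7, the partner of tissue factor, F10, which makes thrombin, and F5, its cofactor, were also listed in Huh7 cells only. The genes of the 3 fibrinogen chains, FGA, FGB and FGG, were listed in Huh7 cells only. F13B, the carrier subunit of the factor that crosslinks fibrin, was listed in HepG2 cells only. F3 (tissue factor), F8, F9 and F13A1 were in neither list.

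Among the natural anticoagulants, SERPINC1 (antithrombin), SERPIND1 (heparin cofactor II), PROC (protein C) and its cofactor PROS1 (protein S) were listed in both cell lines. THBD (thrombomodulin), on which thrombin activates protein C, and SERPINA5, the protein C inhibitor, were listed in Huh7 cells only. PROC, PROS1, THBD and SERPINA5 were counted here as the protein C system, so Huh7 cells listed 4 of 4 and HepG2 cells 2. The protein C receptor gene PROCR, counted with the receptors, was in neither list. A2M, a general protease trap, was listed in Huh7 cells only. TFPI, which blocks tissue factor with factor VIIa, and SERPINA1 were in neither list. Of 7 vitamin K-dependent proteins, a group named after the lists had been seen, HepG2 cells listed F2, PROC and PROS1. Huh7 cells listed these with F7, F10 and PROZ. All of these except PROZ are members, which were chosen by their listing, so the counts of this group are not independent of the rows.

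In fibrinolysis, PLAU (urokinase), its receptor PLAUR and SERPINF2, the plasmin inhibitor, were listed in both cell lines. CPB2, a carboxypeptidase that removes plasminogen binding sites from fibrin, was listed in Huh7 cells only. PLG itself, PLAT and SERPINB2 were in neither list.

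Of the regulators of complement, C4BPA and C4BPB, which form C4b-binding protein, and CD59, which blocks the membrane attack complex, were listed in both cell lines. C4b-binding protein also binds protein S, whose gene was listed in both as well. SERPING1, the C1 inhibitor, was listed in HepG2 cells only, as were C1QC and C1R. CFI, the protease that inactivates C3b, was listed in Huh7 cells only, as was CFB. CD46, CD55, CLU and VTN were in neither list.

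Among the receptors, CR2, the receptor of C3d, and PLAUR were listed in both cell lines. CR1, the receptor of C3b, and F2R, the main thrombin receptor, were listed in HepG2 cells only. Outside the row, the thrombin receptor gene F2RL2 was listed in both cell lines and F2RL3 in HepG2 cells, so HepG2 cells listed all 3 thrombin receptors and Huh7 cells 1. ITGAM was listed in both cell lines, and ITGAX and CR1L in HepG2 cells only. C3AR1, C5AR1, ITGB2 and VSIG4 were in neither list, nor were PROCR, BDKRB1 and BDKRB2. Altogether 12 genes of the 91 were listed in a GO table but in neither row, among them CFHR5 in HepG2 cells only. CFHR2, CFHR3 and CFHR4 were in neither list.

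Some members are markers of other cell types, since C1q is made mainly by myeloid cells and VWF and THBD by endothelium. Of 6 myeloid markers, HepG2 cells listed 5 and Huh7 cells 4, among them PTPRC, CD14 and CD68 in both. Of 5 endothelial markers, 3 and 4 were listed. Among these were VWF in both cell lines and THBD in Huh7 cells, which are members and so were chosen by their listing. Of 10 hepatocyte markers, HepG2 cells listed 4, among them ALB, AFP and HNF4A, and Huh7 cells 7, which were ALB, AFP, HNF4A, TTR, APOA1, APOB and APOH. Among all annotated genes, HepG2 cells listed 21.6% and Huh7 cells 19.7%. The lists carry no levels, so the paper's description of the lines could not be checked by marker level. The part of these markers in the results was not tested.

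Several members lie beside each other in the genome, among them the 3 fibrinogen genes, which were listed in Huh7 cells only. By the GENCODE release 29 annotation of GRCh38, FGB lies at chr4:154562956-154571086, FGA at chr4:154583126-154590766 and FGG at chr4:154604134-154612967. FGB is on the plus strand and the other two are on the minus strand. Their RefSeq promoter windows (GRCh38.p14) are shown because the 3 chains build the same protein and shared the same listing. The 250 bases before the start are printed 5′ to 3′ on the strand of the gene, with matches to GTTAAT (a short motif known from promoters of liver genes) and to CTGGGAA (the core of the interleukin-6 response element) in capitals, on either strand. RefSeq starts are used, and all 3 lie inside the longer GENCODE gene. The windows are chr4:154590743-154590992 for FGA, chr4:154562730-154562979 for FGB and chr4:154612657-154612906 for FGG.
FGA: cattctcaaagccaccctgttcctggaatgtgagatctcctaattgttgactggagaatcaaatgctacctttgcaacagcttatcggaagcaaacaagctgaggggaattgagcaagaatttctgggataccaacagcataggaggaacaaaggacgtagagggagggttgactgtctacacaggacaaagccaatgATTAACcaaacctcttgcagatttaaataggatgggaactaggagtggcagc
FGB: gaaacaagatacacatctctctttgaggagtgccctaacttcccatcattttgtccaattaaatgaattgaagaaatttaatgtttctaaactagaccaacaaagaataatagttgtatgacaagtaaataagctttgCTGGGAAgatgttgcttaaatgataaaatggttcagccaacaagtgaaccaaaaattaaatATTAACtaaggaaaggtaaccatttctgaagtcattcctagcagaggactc
FGG: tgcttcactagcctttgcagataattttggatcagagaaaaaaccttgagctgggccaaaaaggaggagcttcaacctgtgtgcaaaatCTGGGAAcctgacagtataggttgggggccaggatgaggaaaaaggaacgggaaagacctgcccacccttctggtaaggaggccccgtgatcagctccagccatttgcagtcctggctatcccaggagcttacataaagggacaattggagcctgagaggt
GTTAAT was matched on the opposite strand, as ATTAAC, and began 52 bases before the start of FGA and 51 bases before that of FGB. CTGGGAA began 112 bases before the start of FGB and 161 bases before that of FGG. Neither motif overlapped the other.

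A window was found for 35 of the 51 members. GTTAAT or its reverse was in the windows of 6 members (17.1%), which were C4BPA, CFI, F13B, F2, FGA and FGB, against 6.22% of 27305 genes with a window. They comprised 2 of 14 members listed in both cell lines, 1 of 4 of HepG2 cells only and 3 of 17 of Huh7 cells only. CTGGGAA or its reverse was in those of F10, FGB and FGG, 3 members (8.57%) against 9.30% of all genes, and TATAAA in those of C7, CFB and F13B (8.57% against 11.1%). A match of letters is not a binding site, and none was tested as one.

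Other neighbours were also compared, with a limit of 100 kb between genes of the cascades. There were 16 such clusters with 45 genes, 25 of them members, and 29 pairs of successive cascade genes. Other genes that may lie between them were not considered. Pairs that hold an identifier without a symbol overlap and share exonic bases. In 8 pairs both genes were listed in the same way, in 2 both were in neither list, and in 19 the listing differed. The 8 include AL049629.2 and CD59, which share 629 exonic bases. F7 and F10, 2.13 kb apart on chromosome 13, and C8A and C8B, neighbours on chromosome 1, were listed in Huh7 cells only. C4BPB and C4BPA, 4.27 kb apart on chromosome 1, were listed in both cell lines. In contrast, C1R was listed in HepG2 cells and C1S, 9.17 kb away, in neither, and F11 was listed in Huh7 cells and KLKB1, 7.47 kb away, in neither.

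**Figure D3:**
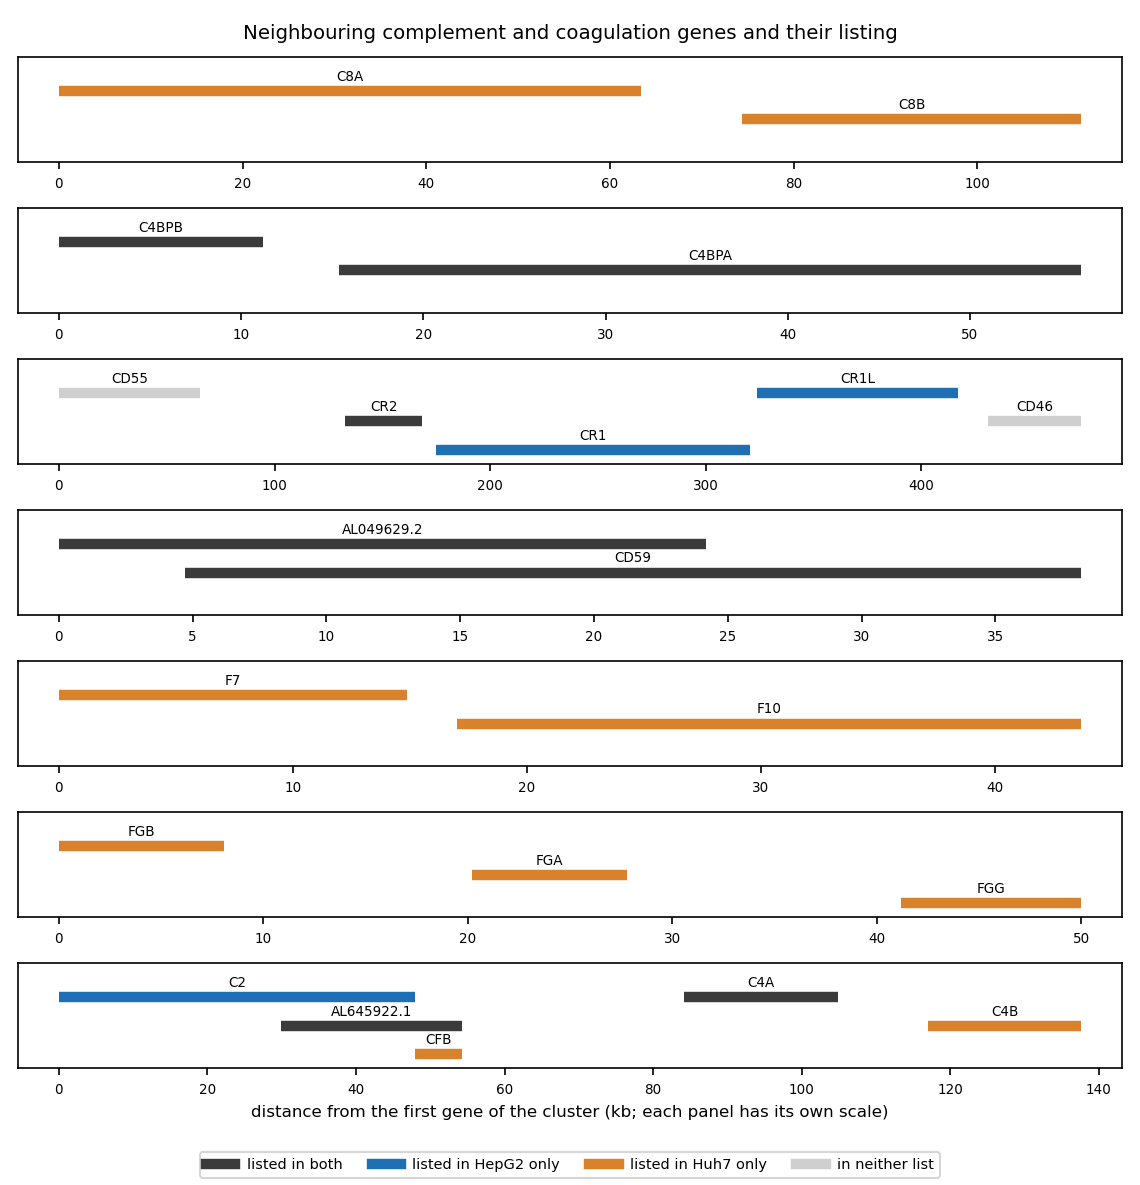
Each panel is a cluster with at least 2 members, 1 such cluster being left out, with genes drawn to scale by distance from the first gene (kb) and coloured by listing. The fibrinogen, F7 and F10, and C8A and C8B panels are orange throughout (Huh7 only), while the panel of C2, CFB, C4A and C4B holds all 3 kinds of listing.

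Genes in the complement cluster of chromosome 6 share sequence, and reads from shared stretches cannot be told apart. The share of stretches of 75 bases in the transcripts of a gene that no transcript of another gene contains was 7.76% for C4A and 10.9% for C4B. C4B contained 92.2% of the stretches of C4A. How such reads were counted is not given in the sources used here, so the listing of C4A and C4B is uncertain. C4A was listed in both cell lines and C4B in Huh7 cells only. Both rows gave only the KEGG gene number of C4B, also that of HepG2 cells, where the listed identifier was C4A.

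Also in the rows were 3 identifiers without a gene symbol. ENSG00000244255 (AL645922.1) was listed in both cell lines and lies across C2 and CFB on the same strand, with 44.7% of its exonic bases in exons of C2 and 55.3% in exons of CFB. Of its stretches, 6.76% were unique. The row of HepG2 cells carried the KEGG gene number of CFB without the CFB identifier, which was listed in Huh7 cells only. ENSG00000284969 (AL049629.2) was listed in both cell lines and has 66.0% of its exonic bases in exons of CD59 on the same strand. CD59 itself was 94.7% unique and listed in both cell lines too.

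ENSG00000277726 (AL109811.4), listed in Huh7 cells only, stood in the row under the KEGG gene number of MASP2. It shares 72 exonic bases (3.27%) with MASP2, which is on the opposite strand, and 1760 (79.8%) with TARDBP, which is on its own strand and encodes an RNA-binding protein. Neither MASP2 nor TARDBP was in a list. The libraries were directional, but whether the counting used strand is not given in the sources used here. Of the remaining members, CFB was 60.3% unique, CFI 70.6% and C2 71.6%. In all, 43 of the 51 members were at least 90% unique, the fibrinogen genes and F7, F10, F11 and F12 at 100%.

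**Figure D4:**
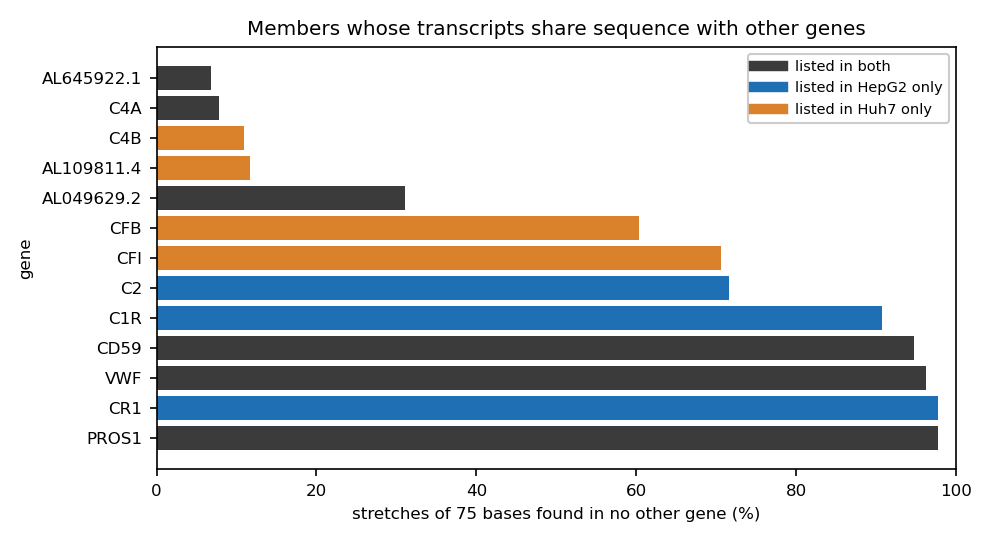
Bars give the percentage of stretches of 75 bases in a member's transcripts that occur in no other gene, for members under 99%, 1 of them left out, coloured by listing. AL645922.1, C4A, C4B and AL109811.4 lie between 6.76% and 11.7%.

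With each KEGG gene number counted once, the rows held 28 (40.6%) and 41 (59.4%) of the 69 background genes, with 21 in common, against 25.7% and 25.2% of all pathway places counted in the same way.

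The GO terms of the cascades, which the choice of members did not use, sorted the listed genes into other sets. They were drawn from the same comparisons, so these shares are not independent of the rows. Membrane attack complex held 3 of 7 genes for HepG2 and 6 of 7 for Huh7, all of them members. Fibrinogen complex held 2 and 7 of 10 genes, fibrinolysis 9 (32.1%) and 18 (64.3%) of 28, and plasminogen activation 6 (24.0%) and 14 (56.0%) of 25. Members, which were chosen by their listing, were 1 and 4 of the listed genes of fibrinogen complex. They were 7 and 13 of those of fibrinolysis, and 3 and 9 of those of plasminogen activation. Platelet alpha granule lumen, the storage compartment of platelet proteins, held 19 (27.1%) and 30 (42.9%) of 70 genes, of which 5 and 10 were members. Negative regulation of complement activation had the opposite order, with 7 of 9 genes for HepG2 and 5 of 9 for Huh7. Of these listed genes 6 and 5 were members, and 4 were in both lists.

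The wide terms differed less between the cell lines. Blood coagulation held 103 (28.3%) and 109 (29.9%) of 364 genes, of which 15 and 25 were members. Complement activation held 31 (11.7%) and 32 (12.1%) of 265 genes, under the share of all annotated genes in each cell line, and 18 and 23 of them were members. This term is much wider than the 32 textbook complement components, of which 15 (46.9%) were listed in each cell line. Its low share is therefore not that of the components. Serine-type endopeptidase activity held 63 (20.1%) and 70 (22.4%) of 313 genes, and serine-type endopeptidase inhibitor activity 37 (38.1%) and 34 (35.1%) of 97. Acute-phase response held 17 and 20 of 55 genes, with F2 and SERPINF2 as members in both and MBL2 in Huh7 cells.

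**Figure D5:**
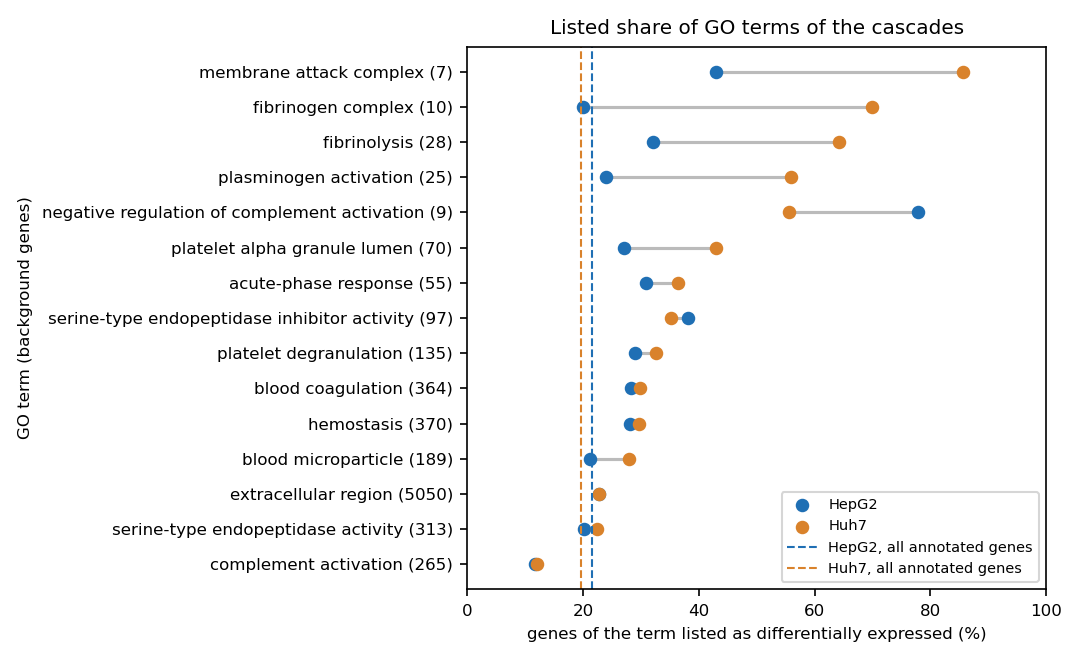
Points give the percentage of the background genes of each GO term that were listed in HepG2 (blue) and Huh7 (orange) cells, with dashed lines at 21.6% and 19.7% for all annotated genes. Membrane attack complex, fibrinogen complex, fibrinolysis and plasminogen activation lie furthest apart, and complement activation lies left of both lines.

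Among the GO terms compared, extracellular region was the one that nearly all members had in common. It held 27 of 29 members of the HepG2 row (93.1%) and 41 of 44 of the Huh7 row (93.2%), against 24.0% and 26.3% of all listed genes. The choice of a pathway of plasma and membrane proteins by itself favours this term. The members outside it were the 3 identifiers without a symbol.

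Of the 51 members, 36 were also in at least 1 other KEGG pathway, and 35 other pathways held a member. Staphylococcus aureus infection, which draws on complement, held 14 of 57 genes (24.6%) for HepG2, 7 of them members. For Huh7 it held 21 of 57 (36.8%), 12 of them members. Over all places of genes in KEGG pathways, 26.3% were listed for HepG2 and 25.8% for Huh7. In Systemic lupus erythematosus the members were few, 8 of 62 listed for HepG2 and 9 of 68 for Huh7. Of 75 Pertussis genes, HepG2 cells listed 22 (29.3%), 8 of them members, with C1QC, C1R, C2 and SERPING1 in HepG2 cells only. Huh7 cells listed 24 (32.0%), 6 of them members, with C4B and C5 in Huh7 cells only. Platelet activation held 38 of 131 genes for HepG2, of which F2R and VWF were members. For Huh7 it held fewer, 29 of 131, of which VWF and the 3 fibrinogen genes were members.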

How the data were processed

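Total RNA from 4 groups, with 1 library in each, was depleted of ribosomal RNA and sequenced as directional libraries. Per the labels' processing notes, the authors used HISAT2, Bowtie2 2.2.8, StringTie 1.3.1 and Cuffdiff 2.1.1; the paper's methods name Cuffdiff for differential expression at an adjusted p-value under 0.05, whereas its results name edgeR. The genome build, the annotation and the read length are not given in the sources used here, nor is the depth of each library. The authors deposited GO (GOseq) and KEGG (KOBAS) tables, whose numbers of listed and background genes were used with the identifiers. Their enrichment p-values, the authors' own comparisons, were not used.

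The members were the identifiers in the row of either KEGG table. Symbols came from a gene name table (48 of 51 matched), and positions, exons and transcripts from GENCODE release 29, by identifier. Every member and every textbook gene outside the rows was named, except a few genes that are not reported here, and sequences were planned for C4A, C4B, the fibrinogen chains, the thrombin receptors and the shortest members; those of the fibrinogen chains are printed. Promoter windows came from RefSeq. The members, roles and gene lists were chosen with earlier results of these data known, and 3 roles were added for identifiers without a symbol. The table readers were tested on simulated data (Python 3.11.15). Alternatives were other sources of the genes, families left out and 2 arms in place of 5 classes.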

Additional observations from a re-analysis of the deposited data

How the results depend on the processing

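The numbers of members listed for HepG2, for Huh7 and for both stayed within 1.5 times the reported values under all alternatives tried. They ranged from 25 to 38 in HepG2 cells, from 40 to 46 in Huh7 cells and from 20 to 24 in both. Every alternative drew on the same lists, and restricting the rows to genes in the GO lists removed none. The highest counts came from the textbook list in place of the rows. These ranges therefore do not measure how certain the listing of a gene is. Counting each KEGG gene number once, and leaving out the identifiers without a symbol, were chosen after seeing the data. Complement genes made up 34.5% of the members in HepG2 cells by class and 58.6% with 2 arms in place of 5 classes, since inhibitors and receptors then joined an arm; in Huh7 cells the values were 31.8% and 47.7%. No paired analysis was possible because the tables used here give lists of genes without a value for each library. For the same reason no test between conditions was made, and no error could be given for the listing of a gene. With 1 library in each group no replicate could be left out. The direction and size of the changes were not analysed here.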

Other observations

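Beside the members, the GO terms of the cascades held further listed genes of clotting and fibrinolysis. Under fibrinolysis, HRG, which binds plasminogen, and FAP were listed in both cell lines, and APOH, THBS1 and TMPRSS6 in Huh7 cells only. Under fibrinogen complex, FN1 (fibronectin) was listed in both cell lines, and FGL1 and THBS1 in Huh7 cells. Under plasminogen activation, SERPINE2 was listed in both cell lines, CLEC3B (tetranectin) and the histone gene H2BC1 in HepG2 cells, and MELTF, APOH and THBS1 in Huh7 cells. Under complement activation, SUSD4, IGLL1, COL20A1 and SCARA3 were listed in both cell lines beside CFP. RGCC and C5AR2, a receptor of C5a, were listed in HepG2 cells, and C1QBP and CPN1, a subunit of the carboxypeptidase that inactivates C3a and C5a, in Huh7 cells. These genes were named because they were among those listed under these 4 terms and outside the pathway row, beside those the report names.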
